A study of Mus musculus with 13 samples.

Results

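The Rab family of small GTPases was followed through the olfactory bulb of mice exposed to fine particulate matter (PM2.5, small airborne particles). The members were all genes of the expression table whose symbol is Rab followed by a number and at most a letter and a digit, which gave 59 of 34745 genes. Of these, 55 were abundant enough to be tested, among 17467 genes tested in all. Rab17, Rab19, Rab25 and Rab44 had too few counts. The Rab7 gene, which gives this set its name, is ENSMUSG00000079477 on mm10 chromosome 6, from 87999106 to 88045270. All animals were wild type C57BL/6 mice labelled as male, 7 to 8 weeks of age, and each of the 13 libraries held RNA of 1 olfactory bulb sample. In the 1st set, 3 libraries (Pmlow-1st) came from mice given PM2.5 labelled at 3 mg/kg with a period of 3 days, and 4 libraries (Ctrl-1st) from mice with no treatment. In the 2nd set, 3 libraries (Pmhigh-2nd) came from mice given 10 mg/kg with the same period, and 3 libraries (Ctrl-2nd) from untreated mice. Neither the route of exposure nor what the set numbers stand for is stated in the sources used here. Comparisons were made within a set, exposed against untreated.

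Rab proteins are switches on the membranes of the cell. In the form that holds GTP they recruit effectors that tether, move or fuse vesicles, and after GTP hydrolysis a GDP dissociation inhibitor takes them off the membrane. Each Rab marks a compartment: Rab5 proteins the early endosome, Rab4 and Rab11 proteins the recycling routes, Rab7 the late endosome on its way to the lysosome, Rab1, Rab2 and Rab6 proteins the traffic between the endoplasmic reticulum (ER) and the Golgi apparatus, and Rab3 and Rab27 proteins the vesicles of regulated secretion, which in neurons include synaptic vesicles. The olfactory bulb is the first relay of the sense of smell and is rich in synapses, and Rab7 is known there, as in other neurons, for endosome maturation, autophagy and the return of signalling endosomes along axons. For the description the members were sorted into 5 classes. These were early and recycling endosome (16 genes, 14 tested), late endosome, lysosome and autophagy (8, all tested), ER-Golgi and secretory traffic (16, 15 tested), synaptic and regulated secretion (8, all tested), and other (11, 10 tested).

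Libraries held 13032834 to 26989267 counts, and the members together took 0.357 to 0.437% of them. The 1st set, in all 7 libraries, had Xist, which coats the inactive X chromosome, at 2245 to 2712 CPM, a count scaled to the TMM-adjusted total of its library, and a summed level of 4 Y-linked genes of at most 0.21 CPM. The 2nd set, in all 6 libraries, had Xist at 0.0992 to 0.555 CPM and the Y-linked sum at 177 to 230 CPM. The 1st set thus goes against the label of male mice. Across the sets, dose, set and expression of sex-linked genes cannot be told apart. Since the tissue was sequenced in bulk, a change in the number of cells of a type and a change in RNA per cell cannot be told apart either. The labels do not say whether replicates came from separate animals, so the tests compare groups of samples whose spread may be technical. Markers of bulb neurons were abundant in every library: 4 markers of granule cells and interneurons summed to 3020 to 3990 CPM, and 5 markers of mitral and tufted cells to 2093 to 2609 CPM.

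The family is built on 1 fold, so the coding sequences of the 59 members, taken from the GENCODE M21 transcripts (GRCm38), were compared in all 1711 pairs to see how much sequence close relatives share. A read that lies wholly in a stretch shared letter for letter cannot be assigned to 1 gene. The longest shared stretch in any pair was 38 bases, the median pair shared 11 bases at most, and no pair shared 50 or more. The stretches of 32 bases or more, 6 in all, are shown because these pairs are where reads could be confused first, 5′ to 3′ on the coding strand, with positions counted from the first base of the start codon. Capitals mark TGGGACAC, the codons that open the guanine nucleotide-binding motif of the 2nd switch region, which 48 of the 59 coding sequences contain.
Rab1a (chromosome 11, from position 307) and Rab1b (chromosome 19, from position 298), 38 bases: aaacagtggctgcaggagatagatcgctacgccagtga
Rab10 (chromosome 12, from position 172) and Rab1a (from position 178), 35 bases: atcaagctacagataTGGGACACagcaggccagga
Rab5a (chromosome 17) and Rab5b (chromosome 10), both from position 451, 35 bases: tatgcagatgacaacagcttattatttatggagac
Rab3b (chromosome 4) and Rab3d (chromosome 9), both from position 46, 33 bases: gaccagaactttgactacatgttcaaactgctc
Rab2b (chromosome 14, from position 235) and Rab4b (chromosome 7, from position 241), 32 bases: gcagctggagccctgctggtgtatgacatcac
Rab4a (from position 193) and Rab8a (from position 178), both on chromosome 8, 32 bases: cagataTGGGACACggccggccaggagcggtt
Rab7 shared at most 20 bases with any member (Rab36) and 18 with Rab7b, its closest namesake, with which it was 61.4% identical over the coding sequence. Outside the coding part the genes were not compared. Of the 59 members, 16 share exon bases with another gene of the table, 13 of them with a gene on the opposite strand. No source used here states the strand setting of the counting, so reads of such partners could have been counted together. For Rab7 the partner is Gm5577, an antisense transcript with 204 shared exon bases and 4.21 to 12.9 CPM.

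Levels were compared between genes by FPKM, which divides the counts by gene length and depth. Over the 13 libraries, 4 members averaged at least 50 FPKM, 25 at least 10 FPKM and 10 under 1 FPKM. By the deposited values Rab6b, the Rab6 form enriched in neurons, was highest with a mean of 103 FPKM. It was followed by Rab2a, which acts in Golgi traffic, with 69.9 FPKM, Rab3a, the main Rab of synaptic vesicles, with 61.8 FPKM, and Rab1b, which acts between the ER and the Golgi, with 60.1 FPKM. Of the endosomal members, Rab5b had 39.9 FPKM, Rab5a 35.5 FPKM and Rab7 24.3 FPKM. Rab24, linked to autophagy, had 18.7 FPKM, while Rab7b, which acts between endosomes and the trans-Golgi network, had 0.275 FPKM. The secretory class was the largest by summed deposited FPKM: in Ctrl-1st libraries the secretory class held 45.7 ± 0.67% of the summed Rab FPKM, early and recycling endosome 27.0 ± 0.418%, synaptic and regulated secretion 14.9 ± 0.267%, other 7.16 ± 0.335% and late endosome 5.25 ± 0.233% (SD, n = 4). The gene lengths implied by the deposited values differed from the exon lengths of GENCODE M21 by a ratio of 0.329 to 2.73. Levels per M21 exon length ranked the 59 members with a Spearman rho of 0.95 against the deposited FPKM, but the order at the top turned. Rab3a then led at 117.6 rescaled FPKM, ahead of Rab6b at 113.9, Rab2a at 69.9, Rab7 at 66.2 and Rab1b at 48.5. Rab7 held the largest ratio of lengths, 2.73, and on this scale it lay above Rab5b at 30.04 and Rab5a at 15.9, although it lay below both in deposited FPKM. The order of members and the shares of classes therefore depend on the gene length used, while fold changes of a gene between libraries do not.

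**Figure D1:**
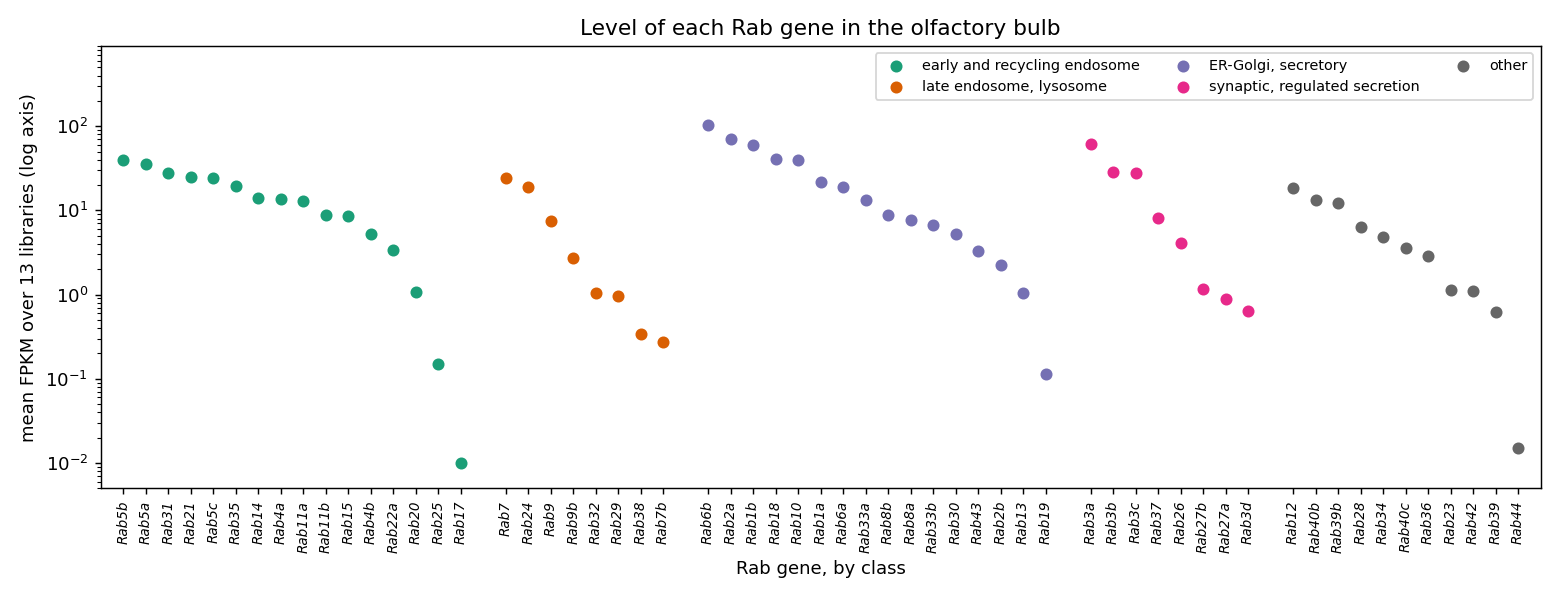
Mean FPKM over the 13 libraries (log axis) of each of the 59 Rab genes, grouped by class and ordered within each class. In the deposited values, whose gene lengths differ from GENCODE M21, Rab6b leads at 103 FPKM, Rab7 leads the late endosomal class at 24.3 FPKM, and Rab17, Rab19, Rab25 and Rab44 lie lowest.

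At the low dose the Rab gene that stood apart was Rab7. It had 176, 178 and 163 CPM in the Pmlow-1st libraries, against 102, 123, 117 and 115 CPM in the Ctrl-1st libraries. Every exposed library lay above every control of the set, and the gap was wider than the range within either group. The log2 fold change was 0.59 (SE 0.12, 95% interval 0.34 to 0.85), with an unadjusted p of 0.00017 and an adjusted p of 0.359 in edgeR's quasi-likelihood test over all genes, so Rab7 did not pass. It was the member with the smallest p. The call depended on the method: Rab7 passed in 3 of 21 alternative settings and did not pass in the other 18. The adjusted p was 0.0147 in DESeq2 and 0.0033 in an edgeR fit of the 1st set alone. In edgeR without Pmhigh-2nd replicate 1, a library outside this comparison, it was 0.0411. Among the settings that did not pass, it was 0.494 in limma on log2(FPKM + 1) and 0.589 in edgeR with at least 1 CPM in every library. The fold change itself kept within 0.54 to 0.63 with each library left out in turn. The level of Rab7 in the exposed libraries stayed below that of the Ctrl-2nd libraries, described further below.

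The low dose called no Rab gene at an adjusted p under 0.05, as it called none of the 17467 genes (0%) with edgeR. DESeq2 called 1 member, Rab7, and limma on log2(FPKM + 1) none. At an unadjusted p under 0.05 there were 2 members of 55, Rab7 and Rab27b, against 2.46% of all genes (1.31% higher and 1.15% lower). A log2 fold change above 0 was found for 26 members (47.3%), against 50.9% of all genes. The exposed and control libraries did not overlap for 4 members, against 6.62% of all genes (3.71% above and 2.91% below their controls): Rab7 lay above the controls, and Rab10, Rab27b and Rab3c lay below them. Rab10 and Rab3c were named here after their values were seen. Rab27b, a Rab of secretory granules and exosomes, had 11.6, 11.9 and 10.8 CPM in Pmlow-1st libraries, against 12.2, 16.5, 14.5 and 16.9 CPM in Ctrl-1st libraries (log2 fold change -0.39, SE 0.17, unadjusted p = 0.0394, edgeR adjusted p = 1). Rab3c, a Rab3 form of synaptic vesicles, had 183, 216 and 228 CPM in Pmlow-1st libraries, against 267, 249, 237 and 231 CPM in Ctrl-1st libraries. Its highest exposed library lay just under its lowest control. Rab10, which carries vesicles from the Golgi and endosomes to the cell surface, had 120.5, 125 and 121 CPM in Pmlow-1st libraries, against 134, 125, 128 and 130.1 CPM in Ctrl-1st libraries, a gap smaller than the spread within the groups.

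None of the other 7 late endosomal members lay apart from its controls. Rab24 had 30.9, 33.6 and 30.5 CPM in Pmlow-1st libraries, against 26.2, 30.3, 26.1 and 32.1 CPM in Ctrl-1st libraries, and the groups overlapped (log2 fold change 0.14). Rab7b had 0.668, 1.25 and 2.03 CPM in Pmlow-1st libraries, against 1.89, 1.69, 2.03 and 2.69 CPM in Ctrl-1st libraries, with a negative log2 fold change of -0.65 (SE 0.36) on 10 to 30 counts in the Pmlow-1st libraries. Rab9, which returns mannose 6-phosphate receptors from late endosomes to the Golgi, had 18.8, 19.2 and 19.1 CPM in Pmlow-1st libraries, against 15.9, 14.6, 23.5 and 16.6 CPM in Ctrl-1st libraries, with overlap. Its relative Rab9b had 9.35, 10.1 and 9.35 CPM in Pmlow-1st libraries, against 11.9, 9.57, 9.78 and 11.5 CPM in Ctrl-1st libraries, also with overlap. Of the low-level members, Rab29, a partner of the Parkinson kinase LRRK2, and Rab32 and Rab38, which serve lysosome-related organelles, had log2 fold changes of 0.30, 0.29 and -0.52 in that order, with standard errors from 0.28 to 0.47. The summed FPKM of the class was 54.0 ± 1.63 in Pmlow-1st libraries (SD, n = 3), against 43.9 ± 2.3 in Ctrl-1st libraries (SD, n = 4). Without Rab7 it was 29.5 ± 0.769 in Pmlow-1st libraries and 27.6 ± 1.46 in Ctrl-1st libraries, and the ranges then overlapped by a small margin, at 29.0 to 30.4 FPKM in Pmlow-1st libraries and 26.0 to 29.1 FPKM in Ctrl-1st libraries.

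The most abundant members of the other classes overlapped their controls at the low dose. Rab5a, the founding Rab of early endosome fusion, had 71.96, 75.6 and 68.8 CPM in Pmlow-1st libraries, against 69.9, 76.5, 76.4 and 83.6 CPM in Ctrl-1st libraries, and Rab5b had 115, 119 and 123 CPM in Pmlow-1st libraries, against 121, 109, 136 and 117 CPM in Ctrl-1st libraries. Both overlapped their controls, and the 95% intervals of the log2 fold changes were -0.29 to 0.12 and -0.21 to 0.16. Rab6b had 513, 551 and 576 CPM in Pmlow-1st libraries, against 575, 571, 582 and 513 CPM in Ctrl-1st libraries (interval -0.19 to 0.12). Rab2a had 123, 131 and 123 CPM in Pmlow-1st libraries, against 128, 127, 136 and 131 CPM in Ctrl-1st libraries (interval -0.25 to 0.14). The groups overlapped for both secretory members, and the intervals included 0. Rab3a had 222, 228 and 218 CPM in Pmlow-1st libraries, against 223, 229, 243 and 208 CPM in Ctrl-1st libraries (interval -0.31 to 0.26). Rab3b, a further synaptic Rab3, had 144, 131 and 131 CPM in Pmlow-1st libraries, against 128, 134, 135 and 133 CPM in Ctrl-1st libraries (interval -0.23 to 0.29). The groups overlapped for both. Rab12, which directs the transferrin receptor to degradation, had 70.4, 75.5 and 63.8 CPM in Pmlow-1st libraries, against 65.7, 60.5, 72.7 and 65.6 CPM in Ctrl-1st libraries. Rab40b, a Rab with a SOCS box that recruits a ubiquitin ligase, had 36.5, 37.5 and 30.8 CPM in Pmlow-1st libraries, against 29.2, 32.3, 34.3 and 32.9 CPM in Ctrl-1st libraries. These, the most abundant of the other members, overlapped too. Rab42, a little-studied member, had the 4th smallest p of the family, with 0.935, 1.39 and 0.948 CPM in Pmlow-1st libraries, against 0.378, 0.493, 0.699 and 0.992 CPM in Ctrl-1st libraries (log2 fold change 0.75, SE 0.45). That difference rests on 14 to 20 counts in Pmlow-1st libraries and 5 to 14 counts in Ctrl-1st libraries, and the groups overlapped.

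**Figure D2:**
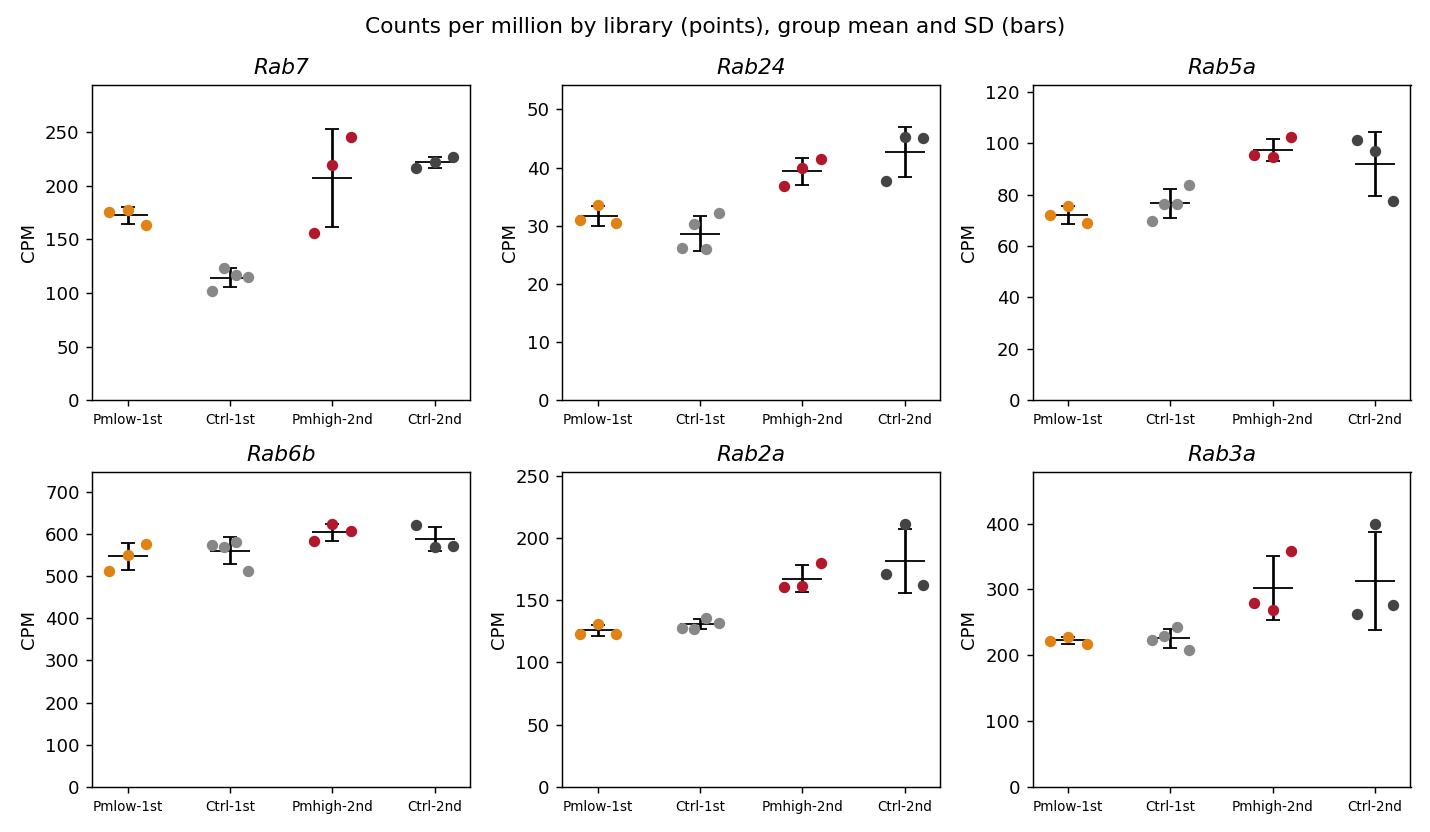
CPM of Rab7, Rab24, Rab5a, Rab6b, Rab2a and Rab3a in every library (points), with the group mean and SD (bars), for the groups Pmlow-1st, Ctrl-1st, Pmhigh-2nd and Ctrl-2nd. The 3 Pmlow-1st libraries lie at 176, 178 and 163 CPM for Rab7, above all 4 Ctrl-1st libraries, while the other 5 genes overlap between exposed and control libraries of each set.

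At the high dose Rab7 did not stand apart. It had 156, 219 and 245 CPM in the Pmhigh-2nd libraries, against 217, 222 and 227 CPM in the Ctrl-2nd libraries. The exposed libraries reached from below the lowest control to above the highest, and the log2 fold change was -0.10 (SE 0.13, 95% interval -0.37 to 0.17, edgeR adjusted p = 0.897). Pmhigh-2nd replicate 1 was the low library, and without it the value was 0.06. The spread of Rab7 among exposed libraries, 207 ± 45.7 CPM (SD, n = 3), was thus wider than among Ctrl-2nd libraries, 222 ± 5.06 CPM (SD, n = 3).

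No member was called at the high dose, where 112 of 17467 genes (0.641%) were, 0.521% higher and 0.12% lower. DESeq2 and limma on log2(FPKM + 1) also called no member. At an unadjusted p under 0.05 there were 2 members, Rab8b and Rab40b, which is 3.64% of 55, against 9.65% of all genes (5.75% higher and 3.89% lower). A log2 fold change above 0 was found for 30 members (54.5%), against 47.2% of all genes. The libraries did not overlap for 2 members, Rab40c above and Rab34, a Rab of Golgi and cilium named after its values were seen, below the controls, against 10.4% of all genes (6.08% above and 4.36% below). By both counts the share of Rab genes lay under that of the whole table. Rab8b, which carries vesicles to the plasma membrane and the primary cilium, had 46.2, 48.8 and 42.6 CPM in Pmhigh-2nd libraries, against 45.2, 33.2 and 29.99 CPM in Ctrl-2nd libraries (log2 fold change 0.35, SE 0.13, edgeR adjusted p = 0.343). Ctrl-2nd replicate 1 lay among the exposed libraries, and without it the log2 fold change was 0.55 with an edgeR adjusted p of 0.0295. Leaving out the control nearest the exposed libraries favours such a call. In the other 20 of 21 alternative settings Rab8b was not called, with a log2 fold change as low as 0.23. Rab40b had 36.3, 34.9 and 39.3 CPM in Pmhigh-2nd libraries, against 38.4, 49.2 and 45.4 CPM in Ctrl-2nd libraries (log2 fold change -0.27, SE 0.11, edgeR adjusted p = 0.436). Its highest exposed library lay above its lowest control. Rab40c, a relative of Rab40b with the same box, had 32.7, 29.9 and 27.4 CPM in Pmhigh-2nd libraries, against 26.9, 18.6 and 15.8 CPM in Ctrl-2nd libraries, without overlap (log2 fold change 0.56, SE 0.27, edgeR adjusted p = 0.541). In the 1st set the same gene ran from 15.2 to 30.6 CPM among Pmlow-1st libraries and from 18.02 to 31.8 CPM among Ctrl-1st libraries, a range wider than that gap. Rab15, an endosomal recycling Rab enriched in neurons, had 58.3, 53.3 and 87.9 CPM in Pmhigh-2nd libraries, against 53.3, 58.05 and 47.5 CPM in Ctrl-2nd libraries (log2 fold change 0.33, SE 0.16), with Pmhigh-2nd replicate 3 far above the other 5 libraries.

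The abundant members overlapped between Pmhigh-2nd and Ctrl-2nd libraries. Rab5a had 95.3, 94.8 and 102 CPM in Pmhigh-2nd libraries, against 101, 97.04 and 77.6 CPM in Ctrl-2nd libraries, and Rab5b had 125, 131 and 142 CPM in Pmhigh-2nd libraries, against 126, 148 and 133 CPM in Ctrl-2nd libraries. The 95% intervals of their log2 fold changes were -0.13 to 0.30 and -0.23 to 0.17. Rab6b had 583, 623 and 606 CPM in Pmhigh-2nd libraries, against 621, 570.4 and 573 CPM in Ctrl-2nd libraries (interval -0.13 to 0.21). Rab2a had 160.3, 162 and 179.6 CPM in Pmhigh-2nd libraries, against 171, 211 and 162 CPM in Ctrl-2nd libraries (interval -0.32 to 0.08). The intervals of these endosomal and secretory members all included 0. Among synaptic members, Rab3a had 279.8, 269 and 358 CPM in Pmhigh-2nd libraries, against 263, 399 and 276 CPM in Ctrl-2nd libraries (interval -0.35 to 0.25). Rab3b had 157, 157 and 176 CPM in Pmhigh-2nd libraries, against 146, 227 and 153 CPM in Ctrl-2nd libraries (interval -0.38 to 0.18). In both synaptic genes 1 control and 1 exposed library, Ctrl-2nd replicate 2 and Pmhigh-2nd replicate 3, lay above the other 4. These are the libraries with the most counts of the 2nd set. They were the highest 2 of the 6 libraries for 16 of 53 members with a mean of at least 1 CPM (30.2%), Rab5c and Rab1b among them, against 19.9% of 16048 genes. They were the lowest 2 for 3 members (5.66%), against 16.7% of genes. For the 16 members the 2 deepest libraries were thus also the highest, and the part of depth was not tested. Levels were not compared with depth over the other 4 libraries. Rab24 had 36.8, 39.95 and 41.4 CPM in Pmhigh-2nd libraries, against 37.8, 45.2 and 45.2 CPM in Ctrl-2nd libraries, and Rab7b had 1.14, 1.26 and 2.04 CPM in Pmhigh-2nd libraries, against 2.37, 1.51 and 2.34 CPM in Ctrl-2nd libraries. Rab12 had 77.1, 75.8 and 83.2 CPM in Pmhigh-2nd libraries, against 79.8, 92.9 and 85.5 CPM in Ctrl-2nd libraries. All of these overlapped as well.

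The high-dose response was then set against the low-dose response in the same fit, as the difference of the log2 fold changes. No member passed with edgeR, DESeq2 or limma, and 1 of 17467 genes did with edgeR (0.00573%). At an unadjusted p under 0.05 there were 3 members, against 5.99% of all genes (3.68% with a higher and 2.31% with a lower response), and all had a lower response at the high dose: Rab7, Rab40b and Rab42. For Rab7 the difference was -0.70 (SE 0.17, unadjusted p = 0.00122, edgeR adjusted p = 0.547), from a log2 fold change of -0.10 at the high dose and 0.59 at the low dose. For Rab40b it was -0.39 (SE 0.16, edgeR adjusted p = 0.744). The difference was above 0 for 27 members (49.1%), against 48.1% of all genes. The same sign at both doses was seen in 25 of 55 members (45.5%), against 49.6% of all genes tested.

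By class, the medians lay near 0 at both doses. At the low dose the median log2 fold change was -0.04 for early and recycling endosome, 0.13 for late endosome, -0.02 for secretory traffic, -0.02 for synaptic and regulated secretion and 0.09 for the other members, beside 0.00 over all genes tested. Members above 0 numbered 5 of 14, 5 of 8, 6 of 15, 2 of 8 and 8 of 10 in that order of classes. At the high dose the medians were 0.04, -0.04, 0.01, 0.03 and -0.07 in the same order, beside -0.01 over all genes, with 10 of 14, 4 of 8, 8 of 15, 5 of 8 and 3 of 10 above 0. The class medians of single libraries varied between replicates with an SD of 0.0845 to 0.11 on the log2 scale, the class of other members not included. That SD describes single libraries, while the medians above compare groups of libraries, so it cannot tell whether they lay within noise. Without Ctrl-2nd replicate 1 the high-dose median of the synaptic class was 0.22 and that of the late endosomal class 0.10, and without Ctrl-2nd replicate 3 that of the synaptic class was -0.10. As a share of the summed Rab FPKM, late endosomal members held 6.45 ± 0.134% in Pmlow-1st libraries (SD, n = 3), against 5.25 ± 0.233% in Ctrl-1st libraries (SD, n = 4), which did not overlap. Synaptic members held 14.2 ± 0.135% in Pmlow-1st libraries, against 14.9 ± 0.267% in Ctrl-1st libraries, again without overlap. The synaptic share includes Rab3c and Rab27b, which lay below their controls, and it was not computed without them. With a class median of -0.02, it does not show a drop across the class. The late endosomal share includes Rab7. Without Rab7 the summed FPKM of that class overlapped, at 29.0 to 30.4 in Pmlow-1st libraries and 26.0 to 29.1 in Ctrl-1st libraries. Early and recycling endosome members held 26.9 ± 0.643% in Pmlow-1st libraries and 27.0 ± 0.418% in Ctrl-1st libraries. In the 2nd set late endosomal members held 6.58 ± 0.614% in Pmhigh-2nd libraries, against 6.88 ± 0.593% in Ctrl-2nd libraries, and synaptic members 15.0 ± 0.493% in Pmhigh-2nd libraries, against 15.1 ± 0.689% in Ctrl-2nd libraries (SD, n = 3 each). Both overlapped.

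**Figure D3:**
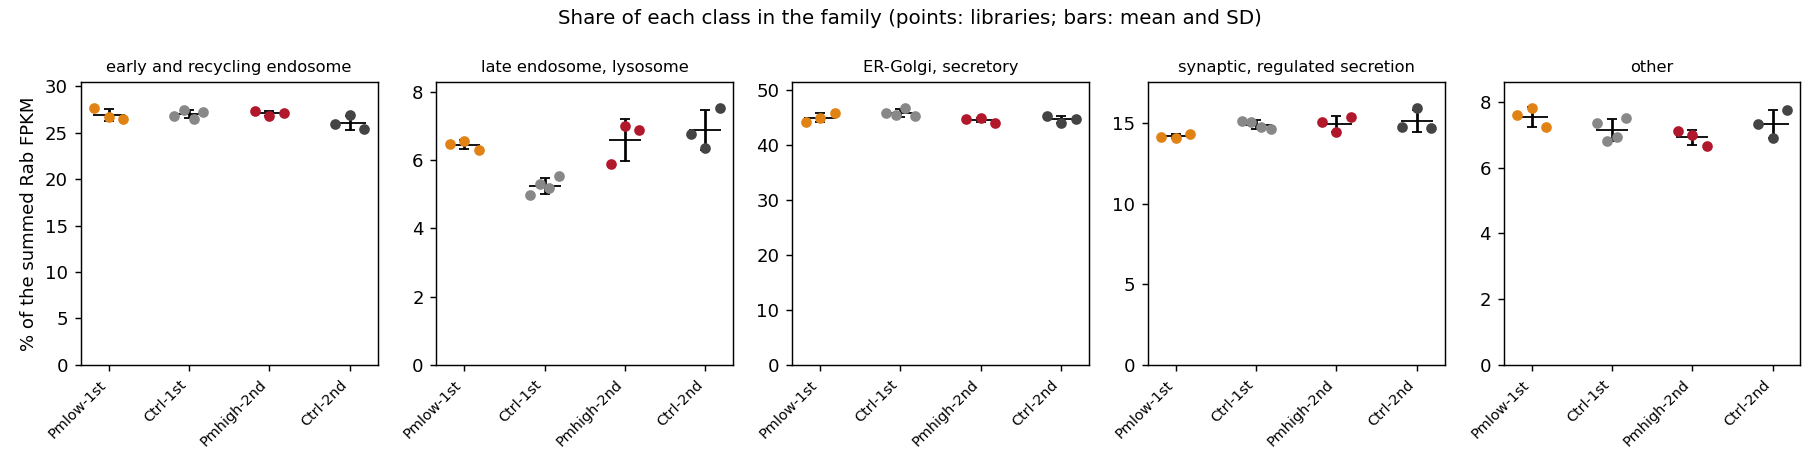
Share of the summed Rab FPKM held by each class in every library (points, percent), with group mean and SD (bars). The late endosomal share lies at 6.30 to 6.57% in Pmlow-1st libraries, above the 4.96 to 5.52% of Ctrl-1st libraries, and the shares of Pmhigh-2nd and Ctrl-2nd libraries overlap in that class. Rab7 is part of that share, and without Rab7 the summed FPKM of the class overlaps between Pmlow-1st and Ctrl-1st libraries.

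Far more genes were called between the untreated mice of the sets than at either dose. This comparison shares its libraries with both dose comparisons, so their values are given side by side only. Of 55 members, 10 (18.2%) had an adjusted p under 0.05 between Ctrl-2nd and Ctrl-1st libraries, beside 3364 of 17467 genes (19.3%), so the share of Rab genes was near that of the table. All 10 were higher in Ctrl-2nd, where 10.5% of all genes were called higher and 8.74% lower. A log2 fold change above 0 was seen in 38 of 55 members (69.1%), against 48% of all genes. At an unadjusted p under 0.05 there were 21 members higher, against 18.5% of all genes, and 2 lower, Rab36 and Rab8b, against 17.2%. The control libraries did not overlap for 13 members higher in Ctrl-2nd, against 15.8% of all genes, and for 2 lower, Rab36 and Rab43, against 14.6%. Rab7 was first among them: it had 217, 222 and 227 CPM in Ctrl-2nd libraries, against 102, 123, 117 and 115 CPM in Ctrl-1st libraries, a log2 fold change of 0.96 (SE 0.12, edgeR adjusted p = 0.000431). The log2 fold change at the low dose was 0.59 for comparison of size, measured against the same Ctrl-1st libraries. Rab24 had 37.8, 45.2 and 45.2 CPM in Ctrl-2nd libraries, against 26.2, 30.3, 26.1 and 32.1 CPM in Ctrl-1st libraries (log2 fold change 0.58, SE 0.10, edgeR adjusted p = 0.00299). Rab24 shares 1258 exon bases with Prelid1 on the opposite strand, which ran from 68.7 to 93.8 CPM in Ctrl-2nd libraries and from 43.9 to 52.2 CPM in Ctrl-1st libraries, and its part in the Rab24 counts was not tested. Among secretory members, Rab2a had 171, 211 and 162 CPM in Ctrl-2nd libraries, against 128, 127, 136 and 131 CPM in Ctrl-1st libraries (log2 fold change 0.47, edgeR adjusted p = 0.00372). Rab1a, the ER exit Rab, had 198, 175 and 182 CPM in Ctrl-2nd libraries, against 143, 143, 153 and 129 CPM in Ctrl-1st libraries (log2 fold change 0.38, edgeR adjusted p = 0.0114). None of these overlapped between the control groups. Of 10 marker lists, 3 did not overlap in their sums between the control groups. The 4 general neuron markers, all above 0 and 2 called higher (Snap25 and Syt1), summed to 3828 to 4606 CPM in Ctrl-2nd libraries, against 3326 to 3529 CPM in Ctrl-1st libraries. The 4 granule cell and interneuron markers, all above 0 and 1 called higher (Gad1), summed to 3782 to 3990 CPM in Ctrl-2nd libraries, against 3231 to 3523 CPM in Ctrl-1st libraries. The 5 endothelial markers lay the other way, at 132 to 173.3 CPM in Ctrl-2nd libraries, against 173.4 to 211 CPM in Ctrl-1st libraries, with 4 below 0 and 2 called lower, Cdh5 (log2 fold change -1.09, edgeR adjusted p = 0.00019) and Flt1 (-0.62, edgeR adjusted p = 0.00927). Their part in the Rab differences was not tested.

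Synaptic members differed unevenly between the control groups. Rab3a had 263, 399 and 276 CPM in Ctrl-2nd libraries, against 223, 229, 243 and 208 CPM in Ctrl-1st libraries (log2 fold change 0.47, edgeR adjusted p = 0.0243), and Rab3b had 146, 227 and 153 CPM in Ctrl-2nd libraries, against 128, 134, 135 and 133 CPM in Ctrl-1st libraries (log2 fold change 0.40, edgeR adjusted p = 0.0322). Both were called higher, with the largest value in Ctrl-2nd replicate 2. Rab3c stood at 329, 187 and 206 CPM in Ctrl-2nd libraries, against 267, 249, 237 and 231 CPM in Ctrl-1st libraries, and did not pass. The median of the 8 synaptic members was -0.02, beside 0.22 for early and recycling endosome, 0.21 for late endosome, 0.20 for secretory traffic, 0.17 for all members and -0.02 over all genes. In the early endosomal class 13 of 14 members were above 0, but Rab14, which links endosomes and the Golgi, was the 1 that passed, with 307, 289.9 and 254 CPM in Ctrl-2nd libraries, against 235, 250.1, 241 and 243 CPM in Ctrl-1st libraries (log2 fold change 0.23, edgeR adjusted p = 0.0405). Of the other members, Rab12 had 79.8, 92.9 and 85.5 CPM in Ctrl-2nd libraries, against 65.7, 60.5, 72.7 and 65.6 CPM in Ctrl-1st libraries (log2 fold change 0.38, edgeR adjusted p = 0.0102). Rab40b had 38.4, 49.2 and 45.4 CPM in Ctrl-2nd libraries, against 29.2, 32.3, 34.3 and 32.9 CPM in Ctrl-1st libraries (log2 fold change 0.46, edgeR adjusted p = 0.01). Neither overlapped.

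How firmly these calls stood depended on the method and on single libraries. DESeq2 called 13 members, the same 10 among them, and limma on log2(FPKM + 1) called 8, which shared 7 with the 10 and lacked Rab3a, Rab3b and Rab14. With each of the 13 libraries left out in turn, Rab7, Rab24, Rab2a, Rab12 and Rab40b were called every time. Rab1a lost its call without Ctrl-2nd replicate 1 (adjusted p = 0.052 in edgeR). Rab39b lost it without Ctrl-1st replicate 2, Ctrl-2nd replicate 1 or Ctrl-2nd replicate 2 (edgeR adjusted p from 0.054 to 0.0833). Rab3a lost it without Ctrl-1st replicate 1, 2 or 4 or Ctrl-2nd replicate 2, with an edgeR adjusted p of up to 0.12. Rab3b lost it without any of the 4 Ctrl-1st libraries or without Ctrl-2nd replicate 2, with an edgeR adjusted p of up to 0.16. Rab14 kept its call in 2 of the 13 cases, without Ctrl-2nd replicate 3 and without Pmhigh-2nd replicate 3. The number of members called was 6 without Ctrl-1st replicate 2 or Ctrl-2nd replicate 2 and 20 without Ctrl-2nd replicate 3.

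**Figure D4:**
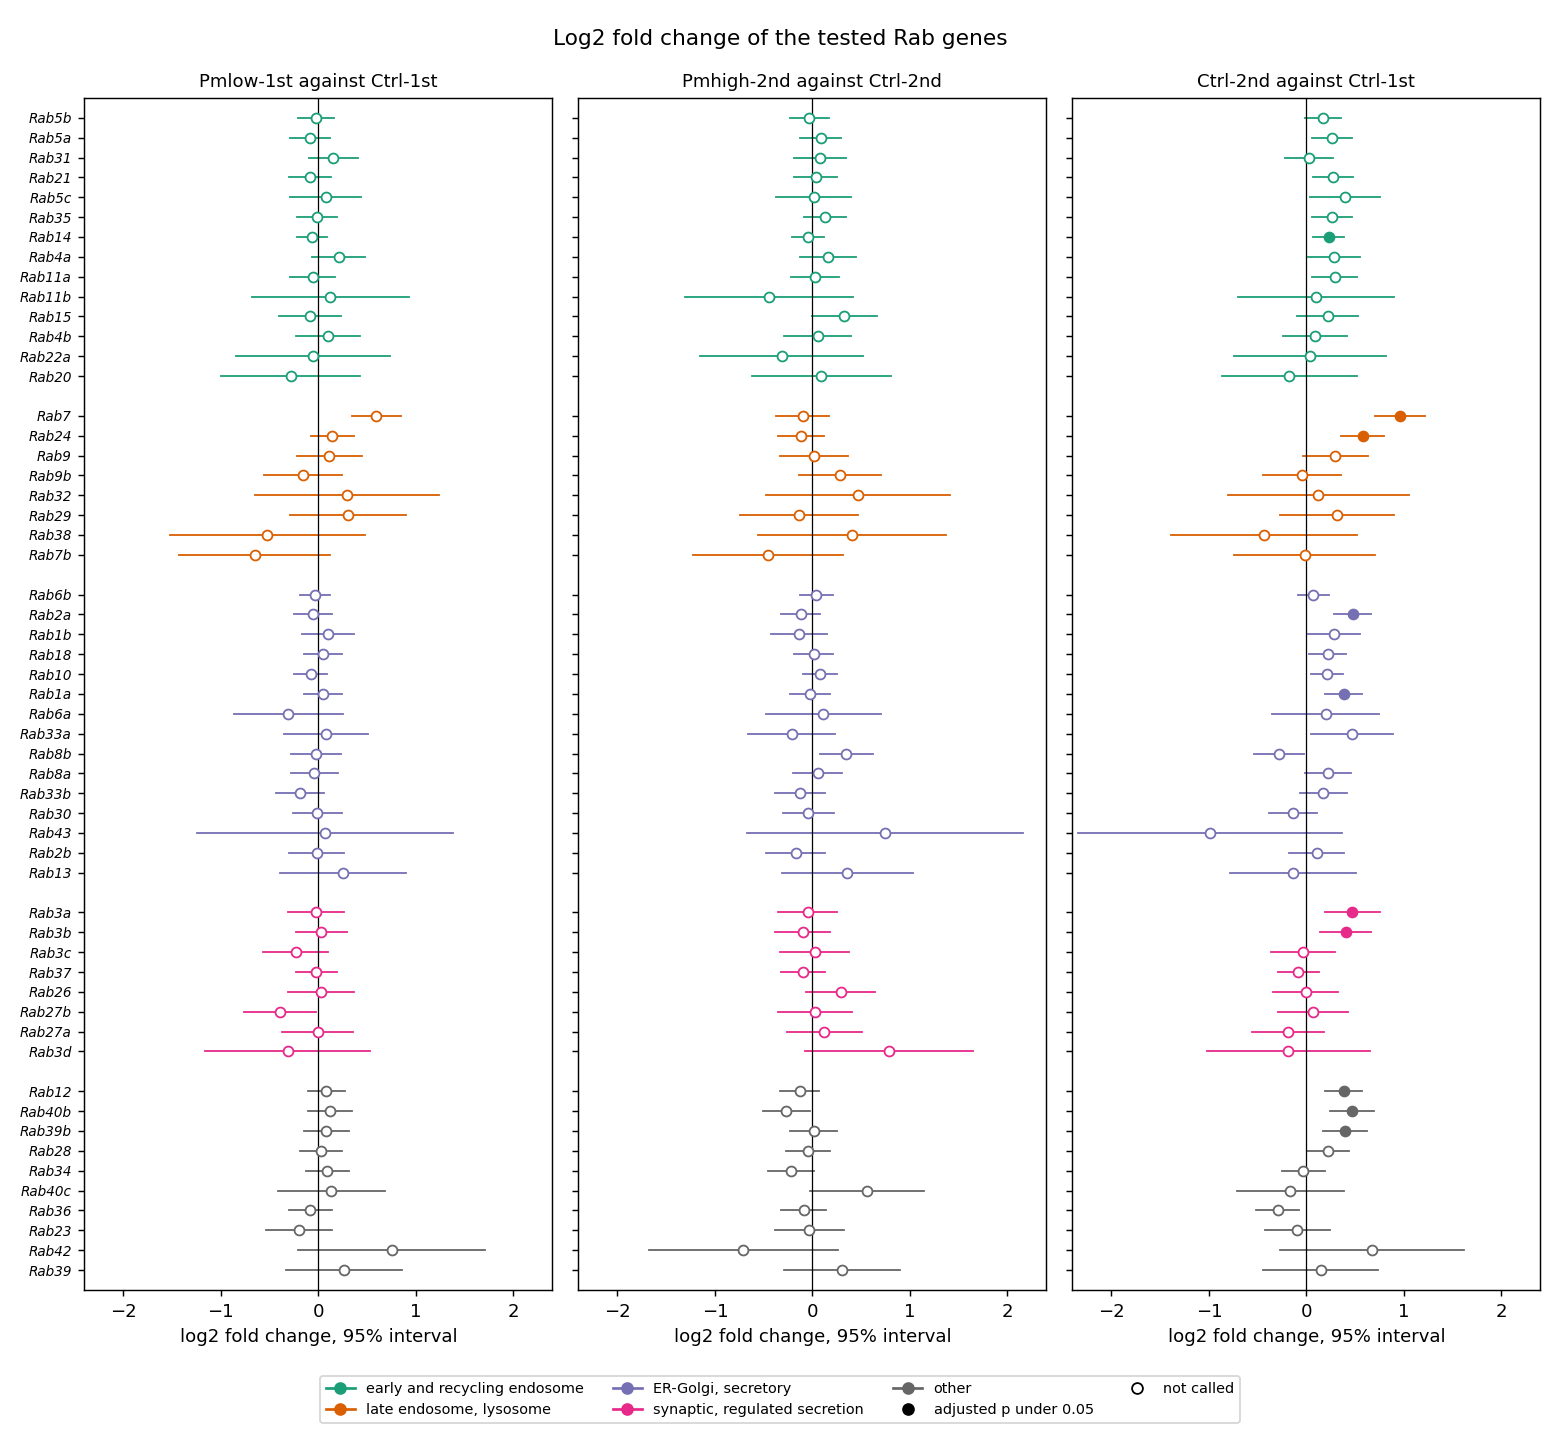
Log2 fold change with its 95% interval for the 55 tested Rab genes by class, for Pmlow-1st against Ctrl-1st, Pmhigh-2nd against Ctrl-2nd and Ctrl-2nd against Ctrl-1st. Filled points have an adjusted p under 0.05: there are 0 in the first panel, 0 in the next and 10 in the last, all to the right of 0.

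The 4 X-linked members are given for the sets because the sets differ in Xist. Rab39b, mutated in X-linked intellectual disability with early parkinsonism in humans, had 50.8, 52.2 and 39.9 CPM in Ctrl-2nd libraries, against 37.4, 33.7, 34.6 and 38.8 CPM in Ctrl-1st libraries, and was called higher (log2 fold change 0.40, edgeR adjusted p = 0.019). Rab33a, a Golgi and secretory vesicle Rab of neurons, had 15.7, 23.96 and 15.9 CPM in Ctrl-2nd libraries, against 11.3, 15.3, 14.9 and 12.3 CPM in Ctrl-1st libraries, without overlap but short of the threshold (log2 fold change 0.47, edgeR adjusted p = 0.106). Rab9 had 21.2, 25.3 and 18.5 CPM in Ctrl-2nd libraries, against 15.9, 14.6, 23.5 and 16.6 CPM in Ctrl-1st libraries, and Rab9b had 14.6, 9.04 and 7.47 CPM in Ctrl-2nd libraries, against 11.9, 9.57, 9.78 and 11.5 CPM in Ctrl-1st libraries, both with overlap. At the doses, Rab39b had 40.3, 39.8 and 34.5 CPM in Pmlow-1st libraries and 45.1, 47.7 and 51.4 CPM in Pmhigh-2nd libraries. Rab33a had 17.9, 12.1 and 12.6 CPM in Pmlow-1st libraries and 15.3, 12.9 and 19.8 CPM in Pmhigh-2nd libraries, and Rab9 and Rab9b in Pmhigh-2nd libraries had 20.2, 20.9 and 24.4 CPM and 12.5, 12.1 and 13.1 CPM. All 4 overlapped with the controls of their set at both doses.

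Rab proteins work with partners, and 77 genes of 5 partner lists were read beside the family, 75 of them tested. The lists held the prenylation and GDP dissociation factors, and the regulators and effectors of Rab7, Rab5, Rab11, and Rab3 with Rab27. No partner was called at either dose with edgeR, where the low dose gave 1 with an unadjusted p under 0.05 and the high dose 7, beside 2.46% and 9.65% of all genes. DESeq2 called none in Pmlow-1st and 1, Rabgef1, in Pmhigh-2nd, and limma on log2(FPKM + 1) none at either. Of 24 tested regulators and effectors of Rab7, the low dose had 12 above 0 and the high dose 17, with medians of 0.01 and 0.05. Rabgef1, an exchange factor that activates Rab5, had 19.4, 22.7 and 20.9 CPM in Pmhigh-2nd libraries, against 32.6, 25.04 and 32.1 CPM in Ctrl-2nd libraries, without overlap (log2 fold change -0.51, SE 0.12, edgeR adjusted p = 0.0913). Tgfbrap1, a subunit of the CORVET tether that acts with Rab5, had 86.4, 84.1 and 55.9 CPM in Pmlow-1st libraries, against 52.0, 52.9, 49.2 and 53.01 CPM in Ctrl-1st libraries (log2 fold change 0.54, edgeR adjusted p = 1). Its lowest exposed library lay just above the controls. Rilpl1, a relative of the Rab7 effector Rilp, had 23.8, 23.05 and 23.9 CPM in Pmhigh-2nd libraries, against 16.05, 21.6 and 15.8 CPM in Ctrl-2nd libraries (log2 fold change 0.40, edgeR adjusted p = 0.225). Rab11fip1, a Rab11 effector, had 5.31, 4.53 and 5.55 CPM in Pmhigh-2nd libraries, against 4.08, 2.51 and 3.89 CPM in Ctrl-2nd libraries (edgeR adjusted p = 0.314). Rab3il1, an exchange factor of Rab3, had 9.73, 10.6 and 10.9 CPM in Pmhigh-2nd libraries, against 6.64, 8.46 and 5.74 CPM in Ctrl-2nd libraries (edgeR adjusted p = 0.235). These 3 did not overlap with their controls either. Like Rabgef1 and Tgfbrap1, each was named for having the smallest p of its list, a choice that favours such separation. Of all genes tested, 10.4% did not overlap between Pmhigh-2nd and Ctrl-2nd libraries, and 6.62% between Pmlow-1st and Ctrl-1st libraries. The share among the 75 partners is not given here, so these genes do not show a response of the partners as a set.

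For the remaining lists and the low dose, the gene of smallest p was Vps29, a subunit of the retromer that Rab7 recruits, at 0.17 for the Rab7 list, Myo5b, the myosin motor of Rab11 vesicles, at -0.14, Rph3a, the Rab3 effector rabphilin, at -0.71, and Chml, a Rab escort protein, at -0.10 on the log2 scale, all with an edgeR adjusted p of 1. At the high dose the prenylation list was led by Rabggtb, a subunit of the transferase that attaches the lipid anchor, at -0.21 (edgeR adjusted p = 0.689). Between Ctrl-2nd and Ctrl-1st libraries 12 of 75 partners (16%) were called, 9 higher and 3 lower, again near the 19.3% of all genes. Gdi2, a GDP dissociation inhibitor that returns Rabs to the cytosol, was among the higher ones, with 268, 319 and 235 CPM in Ctrl-2nd libraries, against 188, 195, 186 and 198 CPM in Ctrl-1st libraries (log2 fold change 0.51, edgeR adjusted p = 0.00392). Fyco1, a Rab7 effector that moves autophagosomes, was among the lower ones at -0.94 (edgeR adjusted p = 0.0131).

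Some members had libraries at separate levels inside a group, and these were chosen after their values were seen. Rab11b, a recycling endosome Rab of brain, had 82.4, 90.5 and 91.1 CPM in Pmlow-1st libraries, against 92.2, 91.3, 95.7 and 44.8 CPM in Ctrl-1st libraries, and 96.02, 49.7 and 45.5 CPM in Pmhigh-2nd libraries, against 96.1, 116 and 47.3 CPM in Ctrl-2nd libraries. Its libraries thus lay either at 44.8 to 49.7 CPM, in 4 of 13, or at 82.4 to 116 CPM, in the other 9, and exposed and control libraries were found at both levels. Rab43, a Golgi Rab, had 27.5, 25.3 and 27.2 CPM in Pmhigh-2nd libraries, against 1.18, 27.5 and 18.4 CPM in Ctrl-2nd libraries. The low value in Ctrl-2nd replicate 1 stood for 18 counts. Rab43 shares 4164 exon bases with the gene model Gm45140 on the same strand, which had 360 counts in that library and 11 to 61 in the others. With the counts of both summed, an alternative chosen after seeing the data, Ctrl-2nd libraries had 24.8, 27.9 and 22.2 CPM, and the high-dose log2 fold change was 0.14, against 0.74 for Rab43 alone, neither called. Rab22a, an early endosome Rab, had 56.8, 53.1 and 13.5 CPM in Pmhigh-2nd libraries, against 50.4, 48.6 and 53.99 CPM in Ctrl-2nd libraries, so that Pmhigh-2nd replicate 3 lay below all other 12 libraries. Rab6a, the widespread Rab6 form of the Golgi, had 66.9, 68.3 and 67.0 CPM in Pmlow-1st libraries, against 68.1, 59.9, 137 and 68.7 CPM in Ctrl-1st libraries, with Ctrl-1st replicate 3 far above the other 6 libraries of the set.

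**Figure D5:**
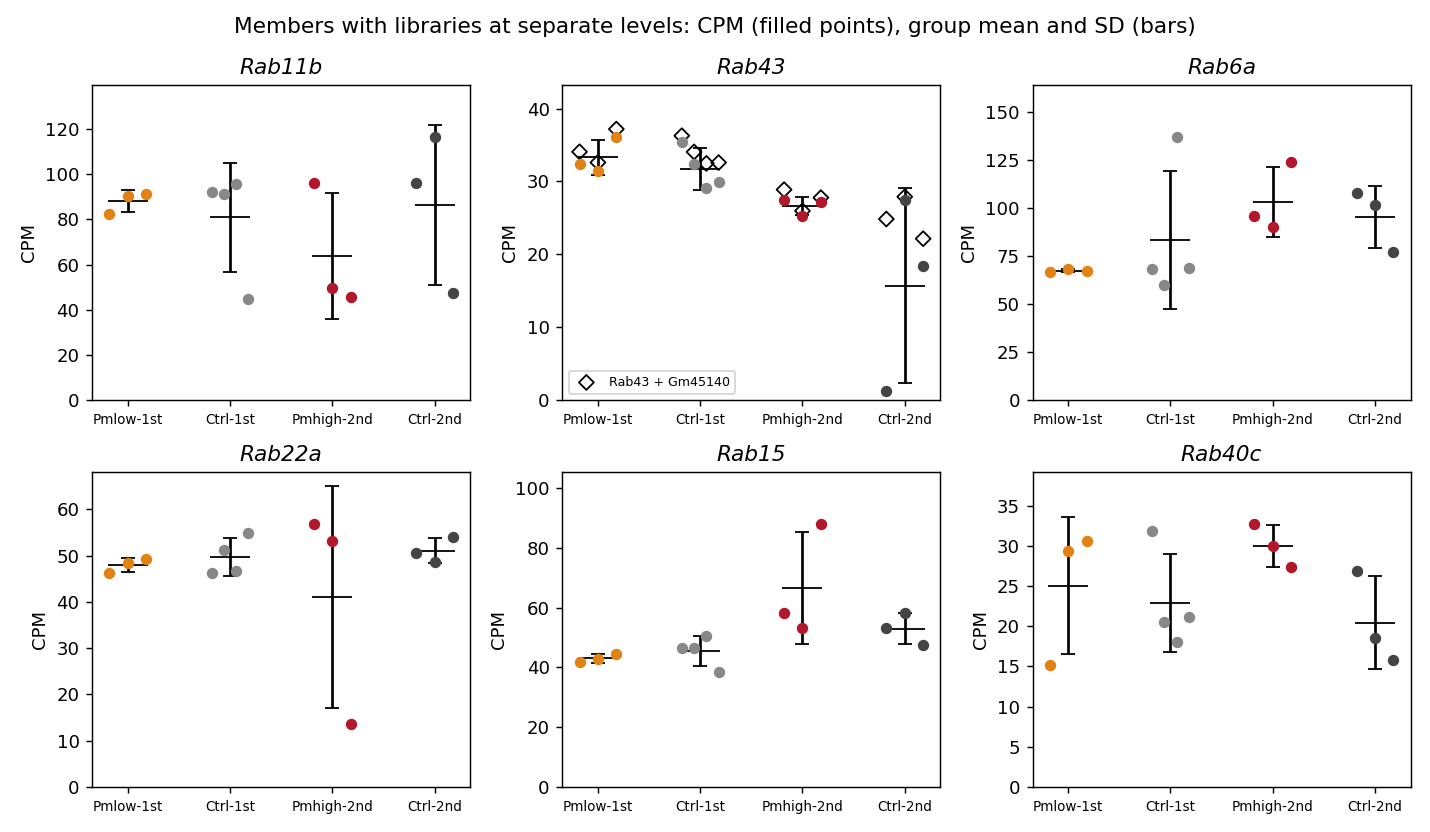
CPM of Rab11b, Rab43, Rab6a, Rab22a, Rab15 and Rab40c in every library (filled points), with group mean and SD (bars); open diamonds add the counts of Gm45140 to Rab43. Rab11b falls into a level of 44.8 to 49.7 CPM and one of 82.4 to 116 CPM, and the diamonds of Rab43 in Ctrl-2nd libraries lie at 22.2 to 27.9 CPM.

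Markers of the cell types in the bulb were read beside these values. At the low dose, where Rab7 stood above its controls, the 4 granule cell and interneuron markers summed to 3549 to 3746 CPM in Pmlow-1st libraries, against 3231 to 3523 CPM in Ctrl-1st libraries, with 4 of 4 above 0. The 3 markers of olfactory sensory neurons summed to 161 to 191 CPM in Pmlow-1st libraries, against 193 to 243 CPM in Ctrl-1st libraries, and 5 oligodendrocyte markers to 1073 to 1306 CPM in Pmlow-1st libraries, against 1295 to 1449 CPM in Ctrl-1st libraries. No marker of these lists was called, and their part in the Rab7 difference was not tested. None of the 5 endothelial markers was above 0 at the low dose, with sums of 169 to 185 CPM in Pmlow-1st libraries, against 173.4 to 211 CPM in Ctrl-1st libraries. All 5 red blood cell markers were above 0, with sums of 86.4 to 117 CPM in Pmlow-1st libraries, against 40.1 to 109 CPM in Ctrl-1st libraries. At the high dose the 5 astrocyte markers summed to 1663 to 1833 CPM in Pmhigh-2nd libraries, against 1134 to 1407 CPM in Ctrl-2nd libraries, with 5 of 5 above 0 and 1, Gfap, called. Gfap averaged 540 CPM in Pmhigh-2nd libraries, against 211 CPM in Ctrl-2nd libraries (log2 fold change 1.36). Aldh1l1, Slc1a3, Gja1 and Aqp4 had log2 fold changes of 0.04, 0.08, 0.19 and 0.33, and each overlapped with its controls. The sum without Gfap was not computed. The 5 markers of neighbouring cortex and striatum, 4 of them above 0, summed to 31.4 to 65.3 CPM in Pmhigh-2nd libraries, against 23.1 to 35.7 CPM in Ctrl-2nd libraries. The 5 red blood cell markers, all above 0, summed to 114 to 302 CPM in Pmhigh-2nd libraries, against 97.2 to 119 CPM in Ctrl-2nd libraries, and Pmhigh-2nd replicate 3 was highest for both lists. The 6 microglia markers summed to 241.7 to 283 CPM in Pmhigh-2nd libraries, against 209.7 to 240.3 CPM in Ctrl-2nd libraries, with 5 above 0. The 4 granule cell and interneuron markers went the other way, with none above 0, at 3020 to 3658 CPM in Pmhigh-2nd libraries, against 3782 to 3990 CPM in Ctrl-2nd libraries. Since no member was called at the high dose, these shifts stand beside no called Rab difference.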

How the data were processed

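RNA-seq of mouse olfactory bulb was analysed from 1 table of 34745 genes with counts and FPKM for 13 libraries. Total RNA was extracted with a column kit and made into stranded total RNA libraries, per the labels' protocols. Reads were processed with HISAT2 on mm10, per the submitters' processing notes; no source used here gives the counting program, annotation release or strand setting. The deposited counts are whole reads per gene, unnormalized, and the deposited FPKM values are the authors' own, per gene length and depth. CPM was computed from the counts over TMM-adjusted library totals, with factors of 0.959 to 1.03.

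Counts were tested in edgeR 4.0.16 (R 4.3.3) by the quasi-likelihood test, with TMM factors and filterByExpr, in 1 fit of all 4 groups (9 residual degrees of freedom), and p-values were adjusted by Benjamini-Hochberg over all 17467 genes, with a threshold of 0.05. The steps were run on counts simulated from the fitted spread, with 200 genes changed by more than Rab7 was at the low dose. The outcome is not given here and does not bear on smaller changes. Alternatives were DESeq2 1.42.0, RLE factors, no low-count filter, a filter at 1 CPM in every library, limma 3.58.1 on log2(FPKM + 1) and log2(FPKM + 0.1), a replicate block, a separate fit of each set, and leaving out each library.

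The members and lists were chosen with earlier results of these data known. Described by library were Rab7 and Rab7b, called members, the 4 smallest p per dose and 2 in the difference of the doses, the 2 highest FPKM per class, and X-linked members; for each partner list and dose, the smallest p. Sequences and overlaps came from GENCODE M21. No libraries agreed within sampling noise (lowest chi-square per gene 6.10, over genes with at least 20 summed counts in a pair). Replicate pairs ran from 6.10 to 10.1 in the 1st set and from 13.8 to 46.9 in the 2nd, the deeper set. The part of depth in this was not tested. Since the main fit shared its spread over both sets, each dose was judged partly by the spread of the other set.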

Additional observations from a re-analysis of the deposited data

Results flagged for a closer look

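In the Ctrl-1st group of 4 libraries, 1 library lay far from the others for 3 of 55 members, by Dixon's gap criterion at 95%, which chance alone meets in about 1 of 20 groups. Rab11b, a recycling endosome Rab, stood at 44.8 CPM in Ctrl-1st replicate 4. Rab6a, a Golgi Rab, stood at 137 CPM in Ctrl-1st replicate 3. Rab8a, a Rab of transport to the plasma membrane and cilium, stood at 30.05 CPM in Ctrl-1st replicate 4. Groups of 3 libraries were not examined in this way.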

How the results depend on the processing

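In all, 22 settings and 56 results were read, with 19 to 22 settings per result. No log2 fold change of a named member reversed other than by leaving out a library. Call counts and class medians were not scored for direction. At the low dose the member calls were 1 with DESeq2 and 1 with a separate fit of each set, in place of 0, with Rab7 at 0.59 in both. With a library left out, calls ranged from 0 to 1 at the low dose (1 without Pmhigh-2nd replicate 1), from 0 to 1 at the high dose (1 without Ctrl-2nd replicate 1) and from 6 to 20 between the control groups, and Rab7 ranged from 0.54 to 0.63 at the low dose and from -0.23 to 0.059 at the high dose. High-dose class medians ranged from -0.14 to 0.10 for late endosome and from -0.10 to 0.22 for synaptic members. They ranged from -0.043 to 0.13 for early and recycling endosome and from -0.021 to 0.050 for secretory members. The low-dose median of secretory members ranged from -0.045 to 0.0023. Directions also turned for uncalled log2 fold changes near 0. At the high dose Rab3a ranged from -0.17 to 0.15, Rab3b from -0.20 to 0.11, Rab5a from -0.025 to 0.17, Rab5b from -0.067 to 0.018 and Rab6b from -0.00019 to 0.094. At the low dose Rab3a ranged from -0.061 to 0.014, Rab3b from -0.018 to 0.051, Rab5b from -0.071 to 0.037 and Rab6b from -0.083 to 0.0080. The causes were not tested.

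Over all genes, the low dose gave 19 calls with DESeq2, 9 with a separate fit, 2 with limma on log2(FPKM + 1) and 0 to 2 with a library left out, against 0. The high dose gave 291 with DESeq2, 69 with the 1 CPM filter, 4 with a separate fit and 21 to 138 with a library left out, against 112. The difference gave 15 with DESeq2, 2 with no filter, 0 with limma on log2(FPKM + 1) and 0 to 6 with a library left out, against 1, and the control groups 1340 to 4073 with a library left out, against 3364. The replicate block left 0 member calls at both doses and in the difference, with 5 genes called at the high dose and 0 in the difference. Deviations of same-numbered libraries correlated from -0.40 to 0.14. Of the exposed libraries, only Pmlow-1st replicate 2 correlated best with the control of its own number. The largest correlations were 0.51, Pmhigh-2nd replicate 3 with Ctrl-2nd replicate 2, and 0.35, Pmhigh-2nd replicate 1 with Ctrl-2nd replicate 3. The lowest was -0.42, Pmhigh-2nd replicate 1 with Ctrl-2nd replicate 2. The block and the separate fit could not be had for the control groups. Depth of 13032834 to 26989267 counts leaves members under 1 FPKM with wide intervals.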
